A study of Macaca mulatta with 36 samples.

Results

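The genes described here encode the subunits of the receptors through which neurons sense glutamate, GABA, glycine and, at nicotinic synapses, acetylcholine. They were taken by a rule on symbols, set with earlier results of these data known. It took every gene whose symbol begins with GRIA, GRIK, GRIN, GRID or GRM and a digit, or with GABR and a letter. Symbols that begin with GABBR, GLRA, GLRB or CHRN were also taken, all among probe sets paired with exactly 1 gene symbol. Where a gene had several probe sets, the one with the highest mean over all arrays stood for it. This gave 42 of the 14132 genes that could be named on the array. Of these, 41 are receptor subunits. The remaining gene, GRID2IP, encodes a postsynaptic protein that binds a delta glutamate receptor and was taken in by its letters.

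Fast excitation in the hippocampus runs through the ionotropic glutamate receptors, which are tetramers of AMPA, kainate or NMDA type, while the metabotropic glutamate receptors act through G proteins. Inhibition runs through the GABA-A and glycine receptors, pentameric chloride channels, and the nicotinic receptors are pentamers of the same superfamily that pass cations when acetylcholine binds. The subunits a neuron makes set where its receptors sit and how long they stay active, so the families below are described subunit by subunit.

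The hippocampus of 18 rhesus macaques, all male, was profiled on Affymetrix arrays from total RNA, and each animal has 2 arrays. Encephalitis caused by simian immunodeficiency virus (SIVE) had been recorded in 9 animals, and the other 9 were uninfected controls. Of the SIVE animals, 5 had no anti-CD8 treatment and were 2 to 5 years old, and 4 had it and were all 6 years old. Of the controls, 7 had no anti-CD8 treatment and were 3 to 8 years old, and 2 had it and were 3 and 4 years old. Anti-CD8 is an antibody given to macaques to deplete CD8 T cells. There is no group of infected animals free of encephalitis, so what comes from infection and what comes from encephalitis cannot be told apart. The labels call the 2 arrays technical replicates and the series design speaks of duplicate samples, and the sources used here do not say whether separate pieces of tissue were used. The animal was the unit of replication, and the number of animals limits the precision of every value.

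Signals are log2 values, so a difference of 1 is a doubling, and each animal's value is the mean of its 2 arrays. Over the 42 genes the SD between animals of a group had a median of 0.175, against 0.204 over all genes. The SD between duplicate arrays had a median of 0.137 for the receptor genes and 0.125 for all genes. In 15 of the 42 genes the duplicates varied at least as much as the animals did. The table used here holds no detection calls. As a measure of brightness, 20 receptor genes had a mean signal at or above 5.65, the median over all probe sets, and 22 lay below it, whereas 71.2% of all genes lay at or above it. A set of 3 animals stood apart: for the control transcripts ACTB, EEF1A1 and GAPDH, 3′ probe sets exceeded 5′ ones by a mean of 0.955 to 1.45 in SIVE 2, SIVE 3 and Control 8, against 0.104 to 0.466 in the other 15 animals. A large 3′ excess is known from degraded RNA and from truncated labelling products. All 3 carry the anti-CD8 label, and the values without them are given below for the genes in which they lay apart.

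Coverage differed between families. Of 68 receptor subunits listed for these families, 41 had a named probe set and 27 did not. All 16 nicotinic subunits were measured, with 4 of 5 glycine, 11 of 19 GABA-A, 4 of 7 NMDA, 2 of 4 AMPA and 2 of 5 kainate subunits. The delta receptors were represented by 1 of 2 and the metabotropic glutamate receptors by 1 of 8, and neither of the 2 GABA-B subunits was among them. Several subunits that make up much of the hippocampal receptor pool were therefore not analysed here. Among them were GRIA2, GRIN2A, GRIN2B, GRM3, GRM5, GABRA5, GABRB2, GABRD, GABBR1 and GABBR2.

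The main comparison asked which receptor transcripts differ between the hippocampus of macaques with SIVE and that of uninfected controls. A single receptor gene, CHRNA2, passed the test and was lower in SIVE, and 0 were higher (limma, Benjamini-Hochberg adjusted p under 0.05 over 52707 probe sets). Among all genes 7.23% were called, 5.72% higher and 1.51% lower, and a single call among 42 genes is no result about the family. At an unadjusted p under 0.05 there were 11 receptor genes, 1 higher and 10 lower, against 25.6% of all genes in either direction. In 0 of the 42 genes were the 2 groups of animals fully apart, while among all genes 1.84% had every SIVE animal above every control and 0.106% had every SIVE animal below.

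The intervals show how large a change in signal could have been missed. In 35 of 42 genes the 95% interval of the difference lay within 1.5-fold in both directions, compared with 87.4% of all genes. It reached 1.5-fold in the other 7, which were CHRNA7, GABRA2, GABRA3, GABRA4, GABRE, GRIN2C and GRM7. The standard error of the difference had a median of 0.082 over the 42 genes. These are bounds on array signal. For the 22 genes below the median probe set level, whether the signal follows the transcript was not tested, so a narrow interval does not bound a transcript change there.

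**Figure D1:**
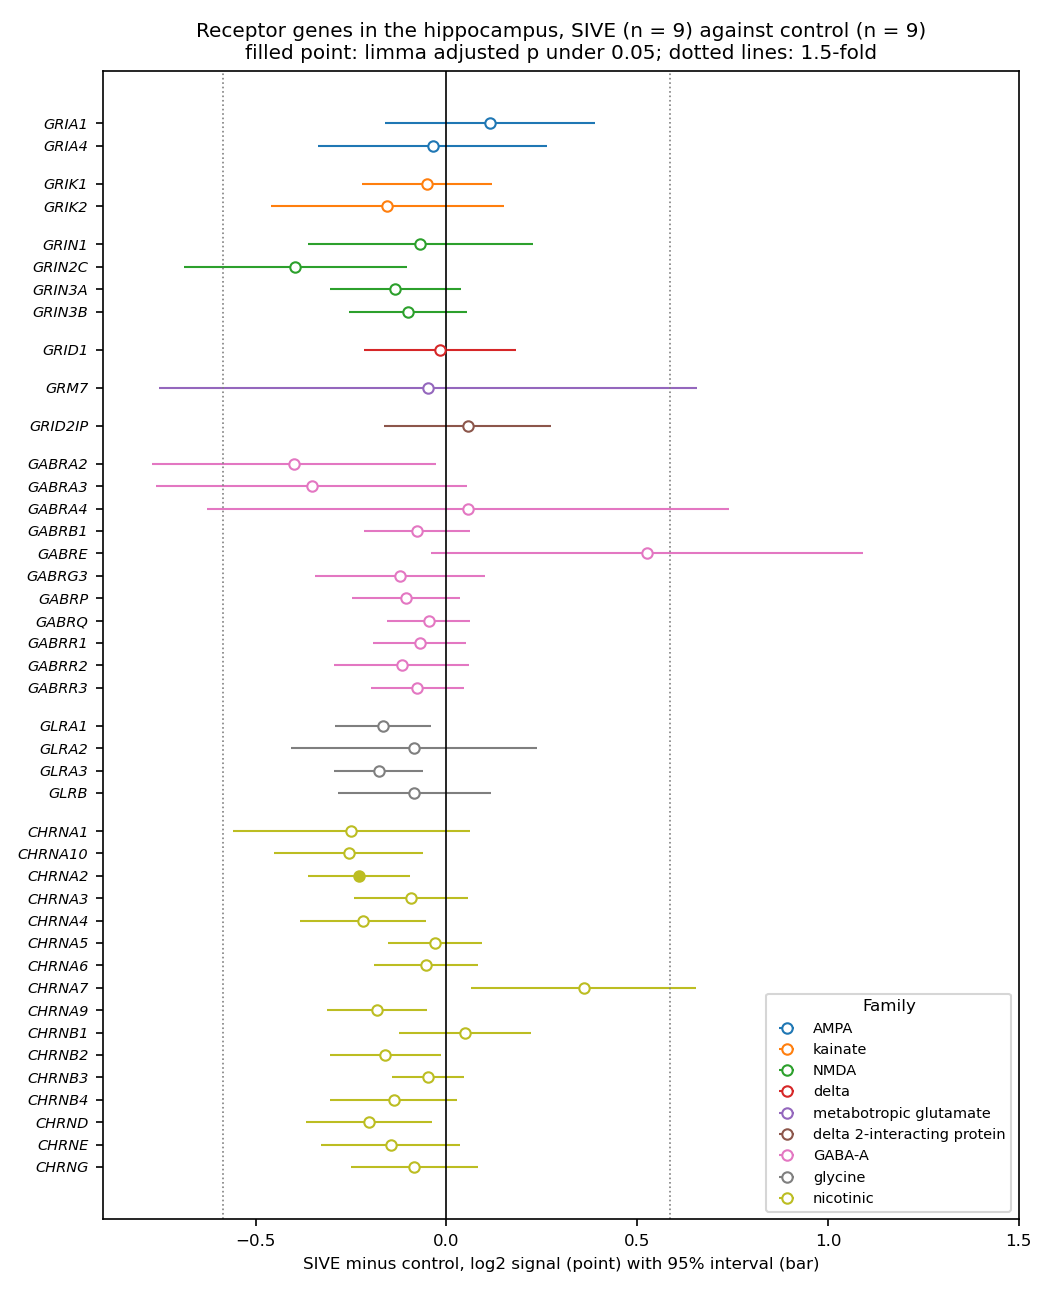
SIVE minus control difference in log2 signal (x axis) for each of the 42 receptor genes (y axis, grouped by family), as a point with its 95% interval, n = 9 animals per group. The only filled point, CHRNA2 at -0.23, passed the adjusted test, and 36 of the 42 points lie below 0.

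Most differences had a negative sign: 36 of 42, with a median of -0.09, whereas 55.6% of all genes were negative with a median of -0.02. The sign went with brightness. The 22 receptor genes below the median probe set level all had a negative difference (median -0.10), and 72.2% of all genes below that level did too (median -0.07). Of the 20 brighter receptor genes, 14 were negative (median -0.08), against 48.9% of all genes as bright (median 0.00). When each array was centred on its own median, 35 of 42 were negative and the median was -0.06.

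CHRNA2 encodes the alpha-2 nicotinic subunit, which in the rodent hippocampus marks interneurons of the stratum oriens that project to the distal dendrites of pyramidal cells. Its signal in the 9 controls ran from 5.38 to 5.78 with a median of 5.50, and in the 9 SIVE animals from 5.07 to 5.57 with a median of 5.29. The groups overlapped, yet 7 of 9 SIVE animals lay below the lowest control. The SIVE mean was 5.29 ± 0.15 (SD, n = 9) and the control mean 5.52 ± 0.11 (n = 9), which gives a difference of -0.23 ± 0.06 (SE) with a 95% interval of -0.36 to -0.09 and an adjusted p of 0.0452. In linear terms controls were 1.17-fold higher. In tissue RNA such as this, fewer cells of a type and less RNA per cell cannot be told apart.

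The call on CHRNA2 was a narrow one. With 1 animal left out at a time it passed in 3 of 18 fits, those without Control 6, SIVE 2 or SIVE 3, and its adjusted p ran from 0.0123 to 0.0874. Its mean signal of 5.41 lies below the median probe set level, where most genes had negative differences, and with each array centred on its median it was -0.20 with an adjusted p of 0.0639. Interneuron markers were read beside it. Of 9 measured inhibitory neuron markers 0 passed the test, against 7.23% of all genes. Their median difference was -0.19, against -0.02 over all genes. The mean deviation of the list from the control mean ran from -0.32 to -0.01 in SIVE and from -0.17 to 0.33 in controls. What part this has in the CHRNA2 difference was not tested.

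The other neuronal nicotinic subunits did not pass. CHRNA7, whose product forms homomeric, calcium-permeable receptors, had the largest positive difference of the nicotinic family. It ran from 9.00 to 9.88 in controls (median 9.50) and from 9.11 to 10.12 in SIVE (median 9.93). Here 6 of 9 SIVE animals lay above the highest control, while SIVE 1, at 9.47, and SIVE 2, at 9.11, lay below the control median. The difference was 0.36 ± 0.14 (SE), or 1.28-fold, with an interval of 0.07 to 0.65 and an adjusted p of 0.152. CHRNA7 passed in 1 of 18 fits that left out an animal, the one without SIVE 2 (difference 0.45, adjusted p 0.0355).

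CHRNA4 and CHRNB2 form the most abundant heteromeric nicotinic receptor of the brain. CHRNA4 ran from 5.55 to 6.16 in controls (median 5.72) and from 5.40 to 5.75 in SIVE (median 5.57). Its difference was -0.22 ± 0.08 (SE, adjusted p 0.121), and 4 of 9 SIVE animals lay below the lowest control. CHRNB2 ran from 5.89 to 6.32 in controls (median 6.10) and from 5.66 to 6.19 in SIVE (median 5.97), with a difference of -0.16 ± 0.07 (adjusted p 0.197). The ranges of both genes overlapped widely. CHRNA3, CHRNA5, CHRNA6, CHRNB3 and CHRNB4, subunits best known from autonomic ganglia and midbrain or habenular neurons, had differences from -0.14 (CHRNB4) to -0.03 (CHRNA5).

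CHRNA9 and CHRNA10, which form the receptor of cochlear hair cells, also had negative differences. All 9 SIVE animals were below the control median of 4.24 for CHRNA9, at 3.98 to 4.20, against 4.11 to 4.61 in controls (difference -0.18 ± 0.06, adjusted p 0.105). For CHRNA10 the difference was -0.26 ± 0.09 (adjusted p 0.124). The subunits of the muscle receptor, CHRNA1, CHRNB1, CHRND, CHRNE and CHRNG, gave differences from -0.25 (CHRNA1) to 0.05 (CHRNB1), and the one with the smallest p was CHRND at -0.20 ± 0.08 (adjusted p 0.152). Both groups of genes are known for tissues other than the hippocampus. CHRNA9, CHRNA10 and CHRND were below the median probe set level, while CHRNA1, CHRNB1, CHRNE and CHRNG were above it. Over the nicotinic family 14 of 16 differences were negative, with a median of -0.14, and 9 of the 16 genes were below that level.

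**Figure D2:**
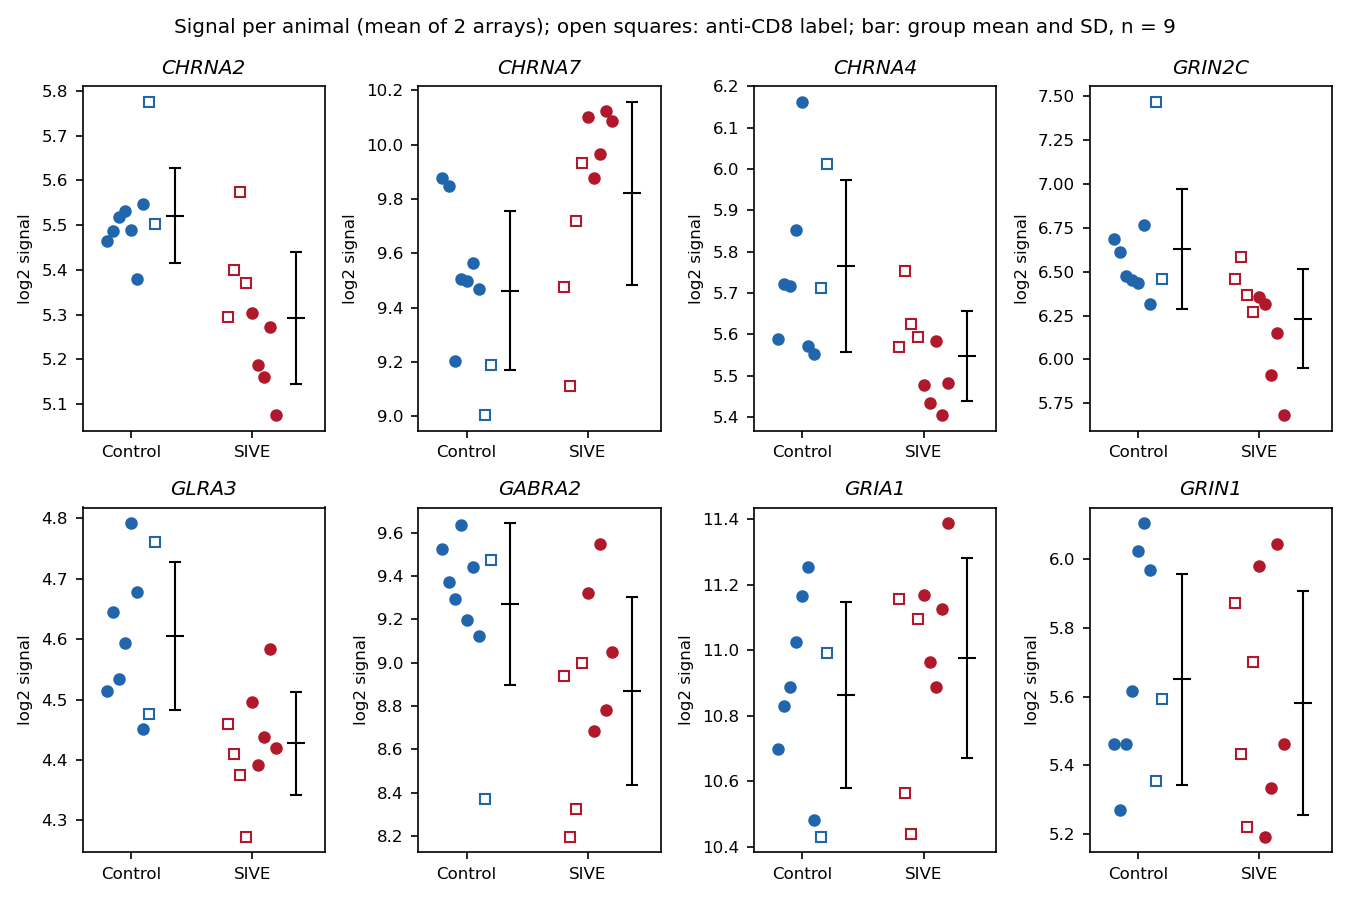
Log2 signal (y axis) of 8 receptor genes in each control and SIVE animal (x axis), 1 point per animal, with open squares for the anti-CD8 label and a bar at the mean ± SD of 9 animals. CHRNA2 was lower in SIVE with overlapping ranges, 6 SIVE points of CHRNA7 lie above all controls, and GRIA1 and GRIN1 overlap throughout.

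Among the glutamate receptors 0 genes passed. GRIA1, the AMPA subunit that carries much of the fast excitatory current of hippocampal pyramidal cells, ran from 10.43 to 11.25 in controls (median 10.89) and from 10.44 to 11.39 in SIVE (median 11.10). The ranges covered each other, and the difference was 0.11 ± 0.13 (SE) with an interval of -0.16 to 0.39. GRIA4, the AMPA subunit typical of interneurons, differed by -0.04 ± 0.14 (interval -0.34 to 0.26). The second probe sets of these genes gave 0.03 for GRIA1 and -0.11 for GRIA4.

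The kainate receptor subunits GRIK1, found mainly in interneurons, and GRIK2, which is rich at mossy fibre synapses, had differences of -0.05 ± 0.08 and -0.15 ± 0.15. GRIK2 ran from 5.93 to 6.94 in controls (median 6.51) and from 5.74 to 6.97 in SIVE (median 6.33), so the SIVE animals spanned the whole control range. GRID1, which encodes the delta-1 receptor, an organizer of synapses rather than a conventional channel, differed by -0.02 ± 0.10. Its second probe set, with a mean of 6.82 against 6.99 for the first, gave -0.16 (interval -0.29 to -0.03, limma adjusted p 0.136).

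GRIN1, the subunit that every NMDA receptor needs, ran from 5.27 to 6.10 in controls (median 5.59) and from 5.19 to 6.04 in SIVE (median 5.46). The difference was -0.07 ± 0.14 with an interval of -0.36 to 0.23, and the groups overlapped almost throughout. GRIN3A and GRIN3B, glycine-binding subunits that lower calcium entry, differed by -0.13 ± 0.08 and -0.10 ± 0.07. All 4 NMDA subunits had a negative sign, and 3 of them, GRIN1, GRIN3A and GRIN3B, were below the median probe set level.

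GRIN2C, the NMDA subunit of cerebellar granule cells and of some astrocytes and interneurons, had the most negative difference of the glutamate receptor genes. It ran from 6.31 to 7.47 in controls (median 6.48) and from 5.68 to 6.58 in SIVE (median 6.31). Of the SIVE animals 4 lay below the lowest control, and the highest value of all, 7.47, came from Control 8, one of the 3 animals with high 3′ signal. The difference was -0.40 ± 0.14 (SE), or 1.32-fold, with an interval of -0.69 to -0.10 and an adjusted p of 0.113. Without the 3 animals it was -0.36 and passed (adjusted p 0.0476).

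Only 1 metabotropic receptor was measured, GRM7, a presynaptic receptor that restrains transmitter release. It ran from 3.73 to 5.92 in controls (median 5.58) and from 3.82 to 6.04 in SIVE (median 5.57), the widest spread of the 42 genes, with an SD of 0.774 between animals. The difference was -0.05 ± 0.34 with an interval of -0.75 to 0.66, so these animals put only a loose bound on it. GRID2IP ran from 9.04 to 9.58 in controls and from 8.80 to 9.68 in SIVE, a difference of 0.06 ± 0.10.

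The GABA-A receptor has alpha and beta subunits at its GABA binding sites, and 0 of the 11 measured subunits passed. GABRA2, an alpha subunit enriched on the axon initial segment of pyramidal cells, ran from 8.37 to 9.64 in controls (median 9.37) and from 8.20 to 9.55 in SIVE (median 8.94). Only 1 SIVE animal was above the control median, but the lowest control, Control 8 at 8.37, lay above SIVE 2 and SIVE 3 alone. The difference was -0.40 ± 0.18 (SE), with an interval of -0.77 to -0.03 and an adjusted p of 0.205.

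GABRA3 differed by -0.35 ± 0.19 (adjusted p 0.306). GABRA4, the alpha subunit of extrasynaptic receptors on dentate granule cells, differed by 0.06 ± 0.33, with an interval of -0.63 to 0.74, and by 0.39 without the 3 animals of high 3′ signal (adjusted p 0.226). GABRB1, a beta subunit, was measured most tightly of the bright GABA-A genes: 10.54 to 10.88 in controls, 10.53 to 10.93 in SIVE, and a difference of -0.08 ± 0.07 (interval -0.21 to 0.06).

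GABRE, the epsilon subunit, had the largest positive difference of the 42 genes. It ran from 5.13 to 7.01 in controls (median 6.55) and from 5.73 to 7.93 in SIVE (median 6.89). Of the SIVE animals 4 lay above the highest control, and 1 lay below every control but Control 6. The difference was 0.53 ± 0.27 (SE), or 1.44-fold, with an interval of -0.04 to 1.09 and an adjusted p of 0.270. The other GABA-A genes, GABRG3, GABRP, GABRQ and the rho subunits GABRR1, GABRR2 and GABRR3 that are known from the retina, had differences between -0.12 and -0.05, and all 6 were below the median probe set level.

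Of the glycine receptor subunits, GLRA3 came closest to the threshold. It ran from 4.45 to 4.79 in controls (median 4.59) and from 4.27 to 4.58 in SIVE (median 4.42), and 6 of 9 SIVE animals lay below the lowest control. The difference was -0.18 ± 0.06 (SE), with an adjusted p of 0.0774. GLRA1, the main adult alpha subunit of the spinal cord and brainstem, differed by -0.16 ± 0.06 (adjusted p 0.125), and GLRA2, the alpha subunit of immature neurons, by -0.08 ± 0.15. GLRB, the beta subunit that ties glycine receptors to gephyrin, was the bright member of the family, at 8.94 to 9.54 in controls (median 9.16) and 8.82 to 9.31 in SIVE (median 9.21). Its difference was -0.08 ± 0.10 with an interval of -0.28 to 0.12.

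Several genes were read by more than 1 probe set, which gives a check inside the array. There were 65 probe sets for the 42 genes, and 1 of the 65, that of CHRNA2, passed, against 4.92% of all probe sets. CHRNA2 has only 1 probe set, so this check does not reach it. Of the 14 genes with several, 11 had probe sets that all shared a sign and 3 did not. CHRNA7 was among the 3: its probe sets gave 0.36, 0.33 (adjusted p 0.0644), 0.30 and, for the dimmest, -0.14. GABRA2 gave -0.40 and, for a dim second probe set, 0.07, and CHRNA3 gave -0.09 and 0.08. The 3 probe sets of GRIN2C gave -0.40, -0.08 and -0.26 (adjusted p 0.0625 for the last). The 4 probe sets of GLRA3 gave -0.18, -0.11, -0.05 and -0.03.

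**Figure D3:**
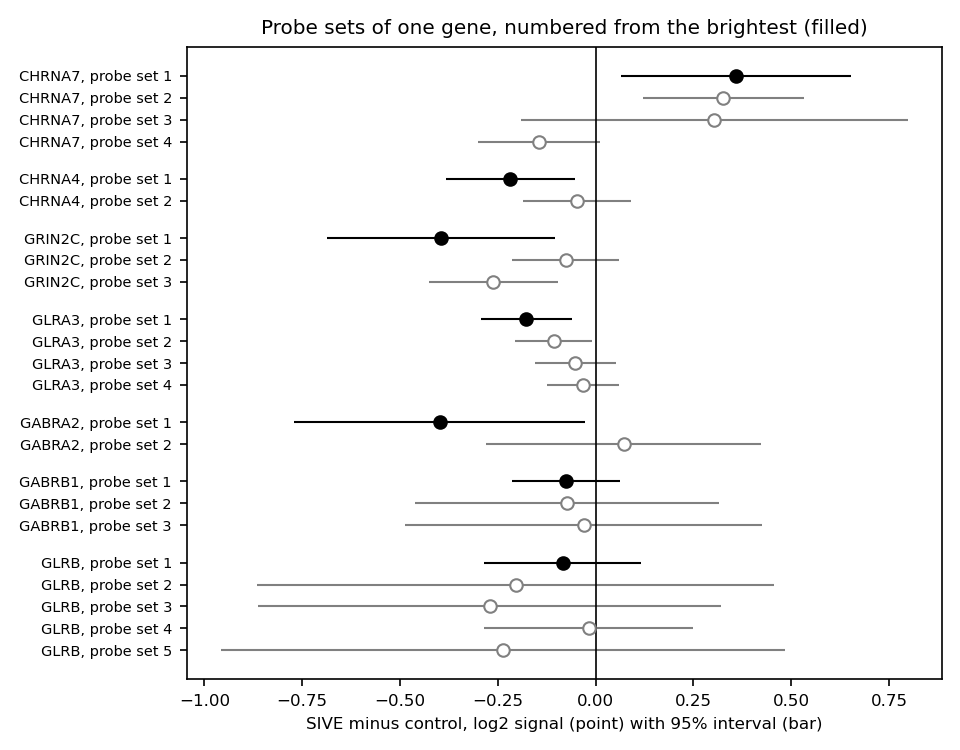
SIVE minus control difference in log2 signal (x axis) for every probe set of 7 receptor genes (y axis, numbered from the brightest), as a point with its 95% interval, n = 9 animals per group. The 3 brighter CHRNA7 probe sets lie above 0 and the dimmest below it, the GABRA2 probe sets lie on opposite sides of 0, and the other 5 genes show 1 sign.

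The anti-CD8 label was uneven between groups, so the comparison was also made within each label in a fit with 4 group means. Without anti-CD8, 5 SIVE animals against 7 controls, 1 receptor gene was lower and 0 were higher, against 4.77% of all genes (3.64% higher and 1.13% lower). It was again CHRNA2, at 5.07 to 5.30 in these SIVE animals and 5.38 to 5.55 in these controls. These ranges were apart. So were those of CHRNA7, at 9.878 to 10.12 in these SIVE animals and 9.20 to 9.876 in these controls. How many of all genes separate in groups this small was not counted. The CHRNA2 difference was -0.29 ± 0.07 (SE, adjusted p 0.0198). It passed in 16 of the 18 fits that left out an animal, the exceptions being those without SIVE 7 or SIVE 9. Fits that left out an animal with the label could not move this difference, because such animals enter only the shared spread. CHRNA7 did not pass at 0.46 ± 0.13 (adjusted p 0.0622), nor GRIN2C at -0.45 ± 0.15 (adjusted p 0.124). At an unadjusted p under 0.05 there were 9 receptor genes, against 22.5% of all genes.

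With anti-CD8, 4 SIVE animals against 2 controls, 0 of 42 receptor genes passed, against 1.51% of all genes, and 9 had an unadjusted p under 0.05, against 16.0%. CHRNA2 differed by -0.23 ± 0.10 (adjusted p 0.270) and CHRNA7 by 0.46 ± 0.19 (adjusted p 0.263). This contrast rests on Control 8 and Control 9, of which Control 8 had high 3′ signal. The SIVE animals in it were all 6 years old and the controls 3 and 4, so SIVE and age cannot be told apart. GRIN2C stood at -0.54 ± 0.22 here. Without Control 9 it was -1.05 and was called, but Control 8, its highest animal, is then the only control, and its spread is assumed to be that of the other groups. That refit called 416 probe sets higher and 350 lower, against 445 and 110 with all animals. CHRND, at -0.35, was called when Control 5, which enters only the shared spread, was left out, and 677 probe sets were then called higher and 984 lower.

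The difference between the SIVE effects with and without the label was tested directly. SIVE and age cannot be told apart on the anti-CD8 side, and the difference carries this limit. For 0 of 42 receptor genes, and 0% of all genes, did it pass (limma adjusted p), and 0 receptor genes had an unadjusted p under 0.05, against 1.90% of all genes. For CHRNA2 the effects differed by 0.06 ± 0.12, with an interval of -0.19 to 0.31. For CHRNA7 the interval was -0.49 to 0.49 and for GRIN2C -0.66 to 0.47, so differences of some size between the labels were not detectable with these animals. The widest intervals were those of GRM7, -1.50 to 1.29, and GABRA4, -2.35 to 0.62.

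Within the controls, 2 animals with anti-CD8 against 7 without, 0 of 42 receptor genes passed, against 0% of all genes, and 5 had an unadjusted p under 0.05, against 15.8%. Left out in turn, 2 controls changed this. Without Control 9, which leaves Control 8 alone in its group and assumes that it varies like the others, GRIN2C was higher by 0.93 and GABRA2 lower by 1.00 with the label, in log2 units, while 3170 of 52707 probe sets were called higher and 2793 lower. Without Control 5, CHRND (0.34) and CHRNG (0.40) were called higher, with 676 probe sets higher and 93 lower.

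**Figure D4:**
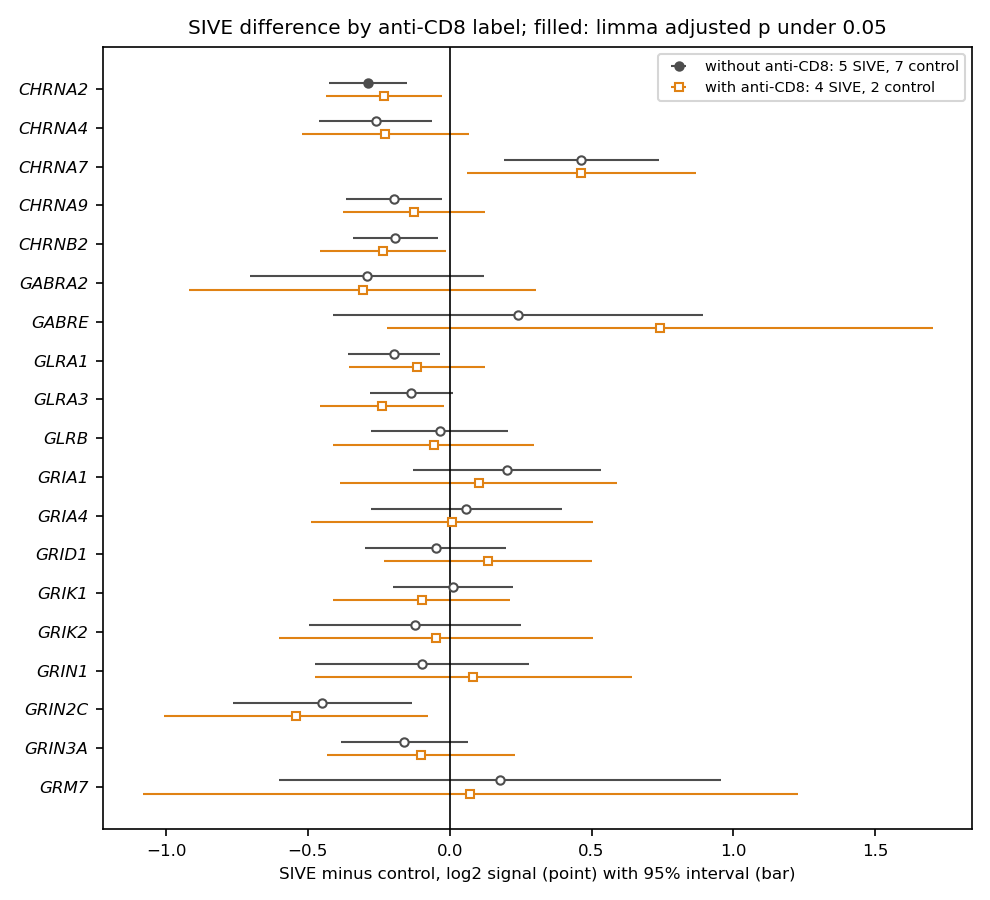
SIVE minus control difference in log2 signal (x axis) for 19 receptor genes (y axis), as a point with its 95% interval, in animals without anti-CD8 (5 SIVE, 7 controls) and with it (4 SIVE, 2 controls). CHRNA2 without anti-CD8, at -0.29, has the only filled point, and the intervals of both labels overlap for each gene.

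The 3 animals with high 3′ signal lay apart in several receptor genes. In 5 of 42 genes, GRM7, GABRA4, GABRA2, GABRA3 and GLRA2, all 3 lay below the other 15 animals, and 9.68% of all genes showed this pattern. GRM7 was at 3.73 to 3.93 in the 3 and 4.96 to 6.04 in the other 15, and GABRA4 at 6.35 to 7.59 against 7.76 to 9.09. GRID2IP was above all others in the 3, at 9.58 to 9.68 against 8.80 to 9.53, a pattern seen in 8.51% of all genes. Without the 3 animals the SIVE difference was 0.16 for GRM7, -0.34 for GABRA2, -0.30 for GABRA3, -0.0042 for GLRA2 and -0.0020 for GRID2IP, and 0 of these passed (adjusted p 0.0846 for GABRA2 and above for the others). These genes were picked out after their values were seen.

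Pyramidal cell markers and endothelial and pericyte markers also lay apart in these animals. In the other cell type lists the 3 did not all lie outside the range of the other 15. These lists were picked out after their values were seen. The mean deviation of 9 pyramidal cell markers from the control mean was -0.54 in SIVE 2, -0.39 in SIVE 3 and -0.47 in Control 8, against -0.23 to 0.46 in the other 15. Of the 9, NEUROD6, CAMK2A, MAN1A1 and NRN1 were below all other animals in the 3, beside 9.68% of all genes. BOK was above, beside 8.51%. The same mean over 7 endothelial and pericyte markers was 0.53, 0.88 and 0.54, against -0.16 to 0.50. What part RNA quality or the cells sampled had in the receptor values of these animals was not tested.

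**Figure D5:**
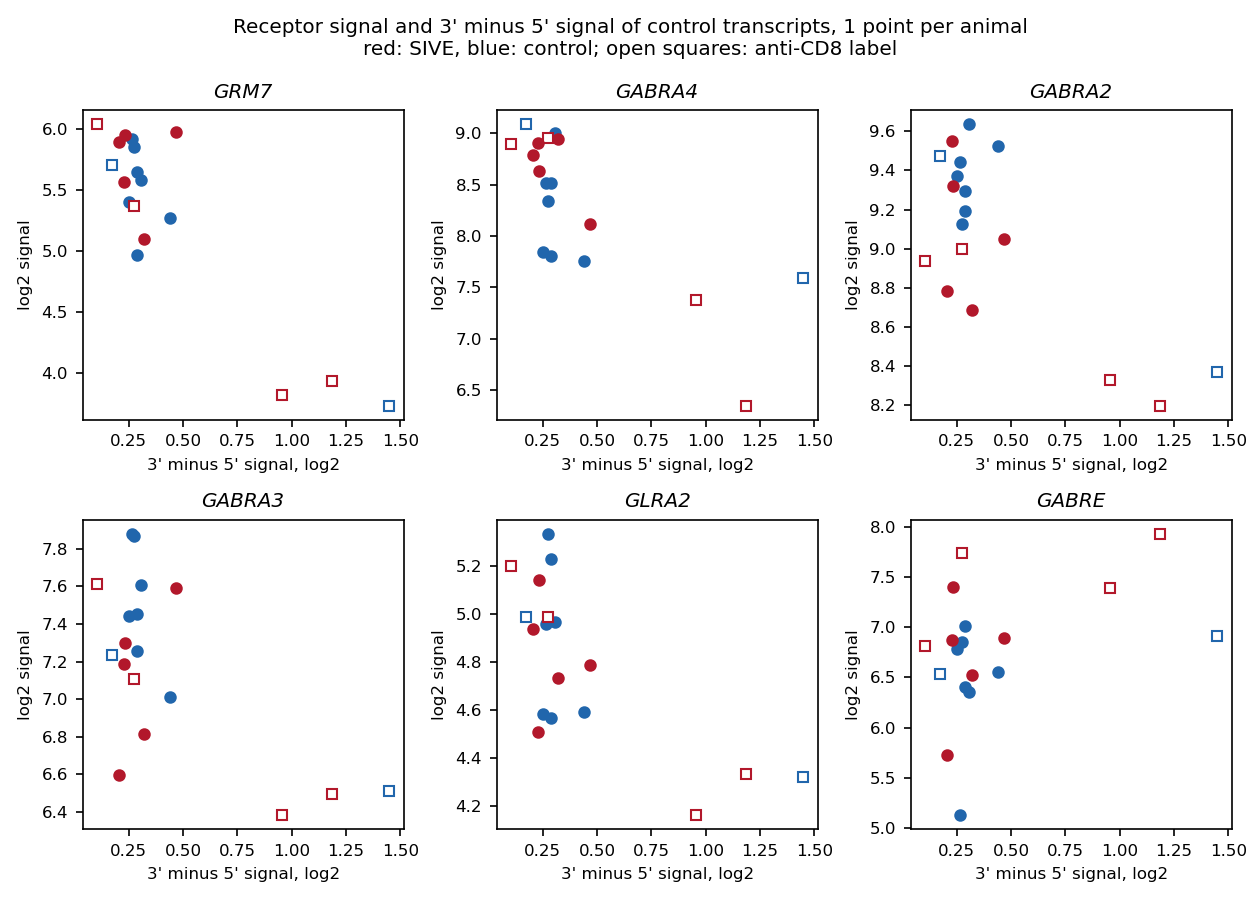
Log2 signal (y axis) of 6 receptor genes against the 3′ minus 5′ signal of the control transcripts (x axis, log2), 1 point per animal (red SIVE, blue control, open squares anti-CD8). SIVE 2, SIVE 3 and Control 8 stand at 0.955 to 1.45 on the x axis and are below the other 15 animals in each panel except GABRE.

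Without these 3 animals the receptor genes gave 1 call higher and 2 lower, against 10.3% of all genes. CHRNA7 was then higher by 0.42 (adjusted p 0.0375), and CHRNA2 (-0.25, adjusted p 0.00690) and GRIN2C were lower. With the 3′ minus 5′ signal as a covariate, 0 were higher and 5 lower, against 12.8% of all genes: CHRNA2, CHRNA10 (-0.26), GABRA2 (-0.38, adjusted p 0.0314), GLRA3 (-0.17) and GRIN2C (-0.41, adjusted p 0.0204). With the anti-CD8 label as a covariate, CHRNA7 (0.46, adjusted p 0.00962) was higher and CHRNA2, CHRNA4, CHRNB2, CHRND and GRIN2C were lower, against 13.4% of all genes. With all 36 arrays and the animal as a random block, CHRNA7 was higher and GRIN2C lower, against 10.9%, and from the first array of each animal alone CHRNA2, CHRNA4 and GLRA3 were lower, against 9.45%. Each of these settings also called a larger share of all genes than the 7.23% above. These shares count both directions. Of 52707 probe sets, calls higher and lower were 2508 and 1301 without the 3 animals and 2872 and 1966 with the 3′ covariate. They were 2509 and 2785 with the anti-CD8 covariate, 2587 and 987 with 36 arrays, and 2062 and 1414 from first arrays.

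The proteins that place receptors at synapses, and the enzymes that make or remove their transmitters, were read from 5 lists. Among all genes 7.23% were called and the median difference was -0.02, so 0 calls in a list of this size is no result about it. Of 11 measured auxiliary subunits of glutamate receptors 0 passed, with a median difference of -0.20. The smallest p belonged to CACNG7, a transmembrane AMPA receptor regulatory protein, at -0.20 ± 0.06 (SE, adjusted p 0.0519), and its relative CACNG5 differed by -0.16 ± 0.07. Of 16 glutamate receptor scaffolds 0 passed (median -0.16). HOMER3, which links metabotropic glutamate receptors to internal calcium stores, differed by -0.35 ± 0.12 (adjusted p 0.117), and LRRTM1, a synaptic adhesion protein, by -0.27 ± 0.11 (adjusted p 0.175).

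Of 14 proteins that anchor or move GABA and glycine receptors 0 passed (median -0.04). KCTD8, an auxiliary subunit of GABA-B receptors, differed by -0.45 ± 0.16 (adjusted p 0.124), and GABARAP, which carries GABA-A receptors to the membrane, by 0.15 ± 0.06 (adjusted p 0.148). Of 7 nicotinic receptor chaperones and modulators 0 passed (median -0.12). LYPD6 differed by -0.21 ± 0.08 (adjusted p 0.155), and MUSK, the kinase that organizes the neuromuscular junction, by -0.13 ± 0.06 (adjusted p 0.216).

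Of 18 enzymes of transmitter synthesis and breakdown, 2 were higher in SIVE and 0 lower, with a median of 0.01. Both called enzymes handle glycine in mitochondria. SHMT2, which interconverts serine and glycine, rose by 0.32 ± 0.07 (SE) from 7.11 ± 0.16 (SD, n = 9) to 7.43 ± 0.13 (n = 9), with an adjusted p of 0.00871. GLDC, the glycine-cleaving subunit of the glycine cleavage system, rose by 0.39 ± 0.10 from 6.89 ± 0.23 to 7.28 ± 0.20, with an adjusted p of 0.0247. The share called, 2 of 18, stands beside 7.23% of all genes, and 2 calls among 18 genes are no result about the list.

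Cell type markers place the tissue. Among all genes 7.23% were called in either direction and 1.51% were called lower. Pan-neuronal markers were among the bright probe sets, and 1 of 6 measured, TUBB3, was lower in SIVE (-0.51 ± 0.12, adjusted p 0.0118). Of 9 pyramidal, 6 dentate granule and 9 inhibitory neuron markers 0 passed. In the immune and vascular lists, beside 5.72% of all genes, 4 of 7 macrophage markers were higher (median 1.18) and 3 of 7 endothelial and pericyte markers (median 0.18). The microglia list had 1 of 6 higher, AIF1, but 4 of 6 negative differences (median -0.13). The T cell list had 1 of 5 higher, GZMB, with 4 of 5 negative (median -0.11), and the B and plasma cell list 1 of 6 higher, JCHAIN (median 0.14). Of 9 astrocyte markers GFAP was higher and SLC1A2, the main glutamate transporter, lower by 0.52. Of 4 oligodendrocyte markers 2 were lower, beside 1.51% of all genes. Oligodendrocyte precursor, choroid plexus, thalamus and striatum, and red blood cell markers gave 0 calls each. The mean deviation of the 7 macrophage markers was 0.74 to 1.85 in SIVE and -0.38 to 0.33 in controls, without overlap, and its part in the receptor differences was not tested.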

How the data were processed

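The authors processed the arrays with RMA (version not given in the sources used here), per the submitters' processing notes. RMA subtracts background, brings the arrays to a common distribution and combines the probes into 1 value per probe set. The deposited values were taken as log2 signals because none exceeds 14.49. Array medians were 5.59 to 5.75 over 52865 probe sets. Of these, 158 control and reporter probe sets were left out. The members and all lists were chosen with earlier results of these data known.

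The 2 arrays of an animal were averaged and all 52707 remaining probe sets went into two-sided tests with limma (version 3.58.1, under R 4.3.3), using lmFit and eBayes. P-values were adjusted over all of them by Benjamini-Hochberg, with a threshold of 0.05. Comparisons within the anti-CD8 label used 1 mean for each of the 4 combinations of group and label, with a shared spread. Intervals are 95% and come from the same fits. The step was tested on simulated data. Gene symbols came from the platform's annotation, which can be old.

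Genes named by rule were those past the threshold, the 2 with the smallest p in each family and pathway list, and 20 principal subunits set by role, of which 13 had no named probe set. Other genes were named after their values were seen. The replicate numbers of SIVE and control animals did not pair them: the correlation of deviations ran from -0.488 to 0.089, and 0 of 9 animals correlated best with its own number. Alternatives are given in the closing section. Tables and figures used Python 3.11.15, pandas 2.3.3, numpy 2.4.6 and matplotlib 3.10.9.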

Additional observations from a re-analysis of the deposited data

Results flagged for a closer look

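In 5 of 38 gene and group combinations tested, 1 animal stood far from the other 8 of its group, and chance alone flags about 1 in 20. In controls, Control 8 was the highest animal for CHRNA2, at 5.78 with the next at 5.55, and for GRIN2C, at 7.47 with the next at 6.76. Control 8 was also the lowest control for GABRA2, at 8.37 with the next at 9.12, and for GRM7, at 3.73 with the next at 4.96. Its 3′ minus 5′ signal of control transcripts was 1.45, the highest of the 18 animals, and its part in these values was not tested. Control 6 was the lowest control for GABRE, at 5.13 with the next at 6.35.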

How the results depend on the processing

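For SIVE against control, 0 receptor genes were higher and 1 lower. That became 1 and 2 without the 3 animals of high 3′ signal, 1 and 5 with the anti-CD8 covariate, 0 and 5 with the 3′ covariate, 0 and 3 from first arrays, and 1 and 1 with 36 arrays. It became 0 and 0 with the replicate block, which moved genes called to 4.05%, with age, second arrays, median centring, renewed quantile normalization, a trend and robust prior, and a dim filter that left 20 receptor genes. Leaving out 1 animal gave 0 to 1 in each direction. Averaging probe sets or taking the second brightest changed no count, but CHRNA2 has only 1 probe set, so its difference could not change there. Apart from the choice of probe set and from leaving out 1 animal, 11 settings kept CHRNA2. It passed in 4 of them and not in 7 (adjusted p 0.00360 to 0.250, difference -0.27 to -0.19).

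Signs turned for GRIA4 (0.011 without the 3 animals, 0.043 with the anti-CD8 covariate, 0.013 from second arrays), GRID1 (0.024 and 0.0080 in the first 2 of these, 0.0085 after centring), GRM7 (0.16 and 0.14 likewise, 0.0008 with the 3′ covariate) and GABRA2 (0.071 for its second probe set). With 1 animal left out, GRIA4 ran from -0.105 to 0.068, GRID1 from -0.0475 to 0.0344 and GRM7 from -0.25 to 0.14. The cause was not tested. Of 601 values for 19 genes, 543 kept sign and side, 22 lost the call, 14 gained it and 22 turned.

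Of all probe sets called, 73.7% were higher. That share was 47.4% with the anti-CD8 covariate, 84.4% after centring, 88.0% with the block, 59.4% with the 3′ covariate and 59.3% from first arrays.

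Without anti-CD8, 0 higher and 1 lower became 1 and 1 with the 3′ covariate, 1 and 2 without the 3 animals, and 0 and 0 with the dim filter. With 1 animal left out these ran 0 to 1 and 0 to 2, lower calls with anti-CD8 0 to 1, and higher and lower calls by label within controls 0 to 2 and 0 to 1. The refits by label that leave out 1 animal were chosen after seeing the data, as was leaving the 3 animals out of the comparison with anti-CD8.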
